A study of Mus musculus with 8 samples.

Results

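The genes described here are 35 markers of microglia, the resident macrophages of the brain, followed through the hippocampus of adult male mice exposed to bisphenol A before weaning. They were picked by gene symbol from the 24527 rows of the deposited table of raw read counts. All 35 were in the table, and all 35 had enough reads in enough libraries to enter the test that covered 15434 genes. By their known roles, 15 were grouped as homeostatic genes of surveying microglia, 12 as genes that are raised when microglia are activated, 3 as the chains of complement C1q and 5 as genes shared by myeloid cells.

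The mice were wild-type males of the C57BL/6J strain, sampled at 20 weeks of age, with 4 in each group. Mothers of the control group ate a low-phytoestrogen diet through pregnancy and lactation, and mothers of the BPA group ate that diet with 50 mg of bisphenol A per kg of diet. Bisphenol A, abbreviated BPA, is a plastics monomer that can act on hormone receptors. All pups were moved to the control diet at weaning on postnatal day 21, so the BPA group had no BPA in its diet from then on. The sources used here do not give the litters of the mice, and the p-values therefore measure only how these 8 mice varied. RNA was taken from whole hippocampus, in which microglia are a minority of the cells. Fewer microglia and less RNA per microglial cell therefore cannot be told apart in any value given here.

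Microglia survey the tissue with motile processes that carry receptors for nucleotides and for neuronal fractalkine. They depend on signals through the colony-stimulating factor 1 receptor for survival and on transforming growth factor beta for their identity. When they meet damage or debris they lower many of these surveillance genes and raise a phagocytic and lysosomal set that is driven in part by the receptor Trem2 and its signalling adaptor Tyrobp. They are also the main source of C1q in the brain, the protein that starts the classical complement cascade and tags synapses for removal. The transcription factor PU.1, the product of Spi1, binds purine-rich sites ahead of many of these genes.

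The stretches of 250 bases ahead of the start sites are shown here for 5 members of different roles, picked by hand and not as a sample of the windows. The choice of the 35 members did not use these sequences. They are RefSeq sequences of the mouse build GRCm38.p6, written 5′ to 3′ on the gene's strand and lying outside the gene models. Capitals mark GAGGAA, the core of the PU.1 site, or its reverse complement TTCCTC where the match is on the opposite strand.
P2ry12 (chr3:59262986-59263235, minus strand): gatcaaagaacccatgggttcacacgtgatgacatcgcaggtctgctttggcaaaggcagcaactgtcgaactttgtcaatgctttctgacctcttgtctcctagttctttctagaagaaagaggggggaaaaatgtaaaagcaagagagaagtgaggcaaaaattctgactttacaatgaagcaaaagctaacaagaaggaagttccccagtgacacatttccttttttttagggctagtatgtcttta
P2ry13 (chr3:59210883-59211132, minus strand): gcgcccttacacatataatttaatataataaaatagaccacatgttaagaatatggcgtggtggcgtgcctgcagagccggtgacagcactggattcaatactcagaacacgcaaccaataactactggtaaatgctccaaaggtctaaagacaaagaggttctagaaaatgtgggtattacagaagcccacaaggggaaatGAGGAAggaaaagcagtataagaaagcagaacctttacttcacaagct
C1qb (chr4:136886201-136886450, minus strand): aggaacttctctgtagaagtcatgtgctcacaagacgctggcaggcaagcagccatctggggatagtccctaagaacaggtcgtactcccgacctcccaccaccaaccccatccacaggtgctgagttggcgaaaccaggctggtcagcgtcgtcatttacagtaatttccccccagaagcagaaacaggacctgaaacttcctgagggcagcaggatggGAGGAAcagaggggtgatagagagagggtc
Trem2 (chr17:48346151-48346400, plus strand): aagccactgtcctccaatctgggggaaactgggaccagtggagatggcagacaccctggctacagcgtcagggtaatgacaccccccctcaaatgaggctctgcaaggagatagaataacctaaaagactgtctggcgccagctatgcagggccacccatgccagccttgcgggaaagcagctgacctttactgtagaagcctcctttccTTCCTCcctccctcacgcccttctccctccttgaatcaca
Cd53 (chr3:106790150-106790399, minus strand): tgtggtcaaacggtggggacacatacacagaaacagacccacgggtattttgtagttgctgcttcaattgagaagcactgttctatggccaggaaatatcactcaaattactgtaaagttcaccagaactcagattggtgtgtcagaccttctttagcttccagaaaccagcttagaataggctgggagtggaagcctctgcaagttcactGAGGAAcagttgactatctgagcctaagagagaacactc
The C1qb match starts 30 bases upstream of the start site, the Cd53 match 39, the Trem2 match 40 and the P2ry13 match 48. P2ry12, which lies 5389 bases from P2ry13, had no match in its window. RefSeq windows were at hand for 27 of the 35 members, some with more than 1 start site. Of their 31 windows, 16 (51.6%), from 15 members, held the motif on either strand. Of all 32851 mouse windows of the same length, 7639 (23.3%) held it. A match describes the letters only and is no measure of binding.

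The 4 control libraries held 27.1 to 40.8 M (mega) reads and the 4 BPA libraries 43.1 to 54.01 M. Every BPA library was deeper than every control library (two-sided exact permutation test p = 0.02857, the smallest that 4 against 4 can give), so depth and exposure cannot be told apart by design. Levels are counts per mega reads (CPM) after TMM scaling. Neuronal markers of the labelled tissue were abundant, with Camk2a at 4189 ± 294 CPM and the dentate gyrus gene Prox1 at 108 ± 25.9 CPM in controls (SD, n = 4). Of 11 monocyte and neutrophil markers 1 passed the filter, none of the 11 had more than 41 reads in a library, and Plac8 and Ly6g were at 0. No lymphocyte marker in the table had more than 8 reads in a library. Of 5 blood genes, the 4 haemoglobin genes were listed at 0, while Alas2 had up to 116 reads in a library. Blood content was not tested, and the haemoglobin values of 0 are not read as an absence of blood. Control replicate 2 and BPA replicate 3 stood apart through genes of the choroid plexus and the meninges, and results that rest on them are also given without them.

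The 35 members together made up 702 ± 13.4 CPM in control mice and 676 ± 18.5 CPM in BPA mice (SD, n = 4). The range was 690.1 to 721 CPM in control mice and 661 to 700.0 CPM in BPA mice, so the groups overlapped. None of the 35 passed the test between the groups (edgeR quasi-likelihood test, Benjamini-Hochberg adjusted p 0.955 to 0.995), and neither did any of the 15434 genes tested (0%). Without adjustment, 3 members had a p under 0.05 (8.57% of 35), against 698 of all genes (4.52%). These 3, Ly86, Ctsd and Cd53, all lay lower in BPA mice, where 355 of 15434 genes were lower at that p (2.30%) and 343 higher (2.22%). The members' share rests on 3 genes, and nothing particular to microglia is read from it.

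With the log2 library total as a covariate, 11 of the 35 members changed sign. In the fit without it, the sizes the data allow were narrow for most members. For 27 of 35 members the 95% interval of the fold change excluded changes of 1.25-fold either way, and for 33 of 35 it excluded changes of 1.5-fold, the exceptions being Lyz2 and Cd74. Over all genes tested it did so for 10501 and 13184 of 15434. Of the members, 15 were higher and 20 lower in BPA mice, with a median log2 fold change of -0.028, and 7711 of all genes (50.0%) were lower, with a median of 4.91e-05. Without control replicate 2 the members' median was 0.016. On simulated counts of all 15434 genes, changes were put into genes drawn at random, not into the members. There the test recovered 48% of 1.25-fold changes, 70% of 1.5-fold and 90% of 2-fold changes, with 7 false calls. Many genes were changed at once there, some of them 3-fold, which eases the adjusted threshold for each changed gene. In the measured data the smallest adjusted p was 0.518 (edgeR). These shares are therefore no measure of recovery for the 35 members or for a gene that changes alone. The lack of calls is not read as a lack of change.

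**Figure D1:**
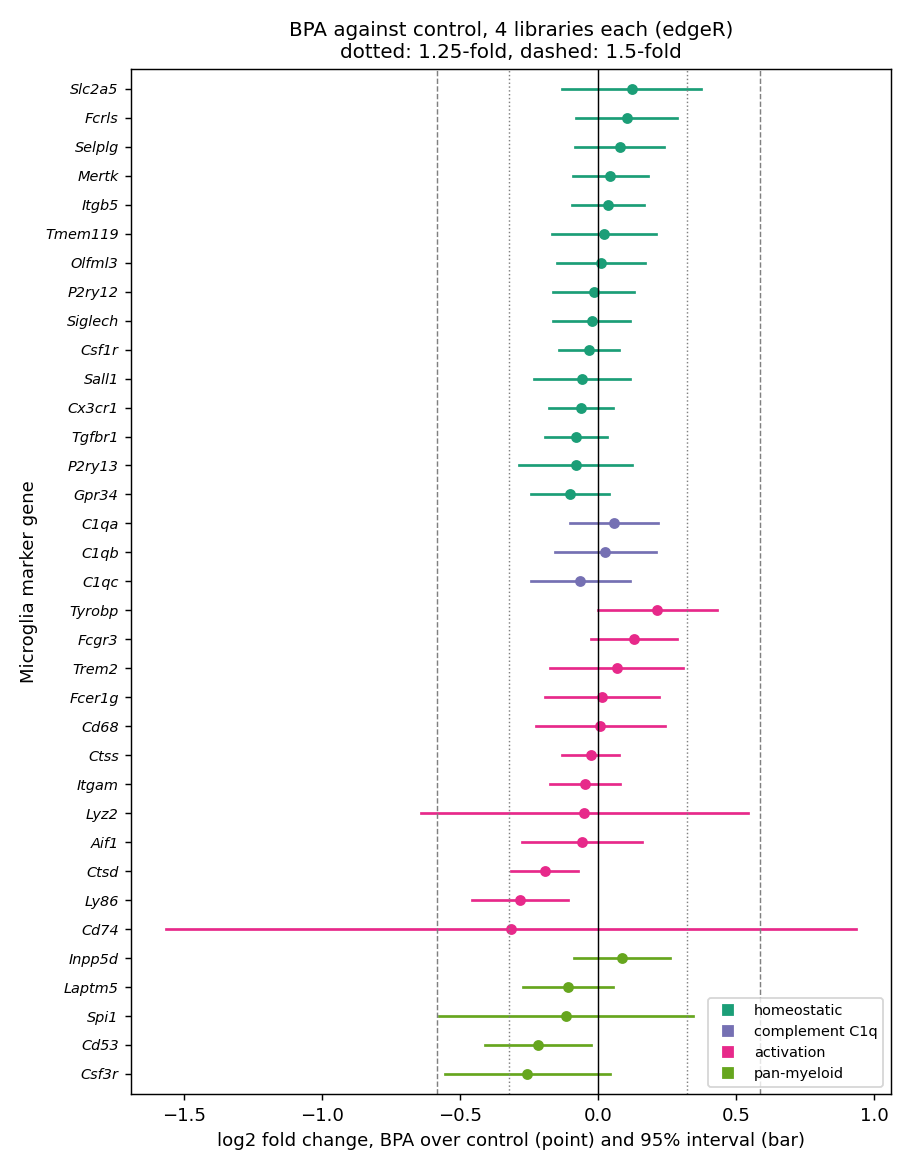
Log2 fold change of each of the 35 members, BPA minus control, with its 95% interval, from the fit without depth as a covariate, grouped by role. The intervals of Lyz2 and Cd74 are wide, and those of the other 33 members stay inside 1.5-fold in both directions.

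Per kilobase of exon, the members' levels spanned a wide range. The lysosomal proteases Ctsd and Ctss led, at 57.0 and 45.4 CPM per kb, followed by the ADP receptor P2ry12 at 17.4 and C1qb at 12.5. A middle tier from 9.32 CPM per kb for the phagocytic receptor Mertk to 3.87 for Tmem119 held many surface receptors. The lowest were the granulocyte colony-stimulating factor receptor Csf3r at 0.690, Cd74 at 0.556 and Spi1 at 0.454 CPM per kb. Ctsd, Mertk, Itgb5 and Tgfbr1 are also made by neurons, astrocytes or vessel cells, and without these 4 the median log2 fold change of the remaining 31 stayed at -0.028.

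**Figure D2:**
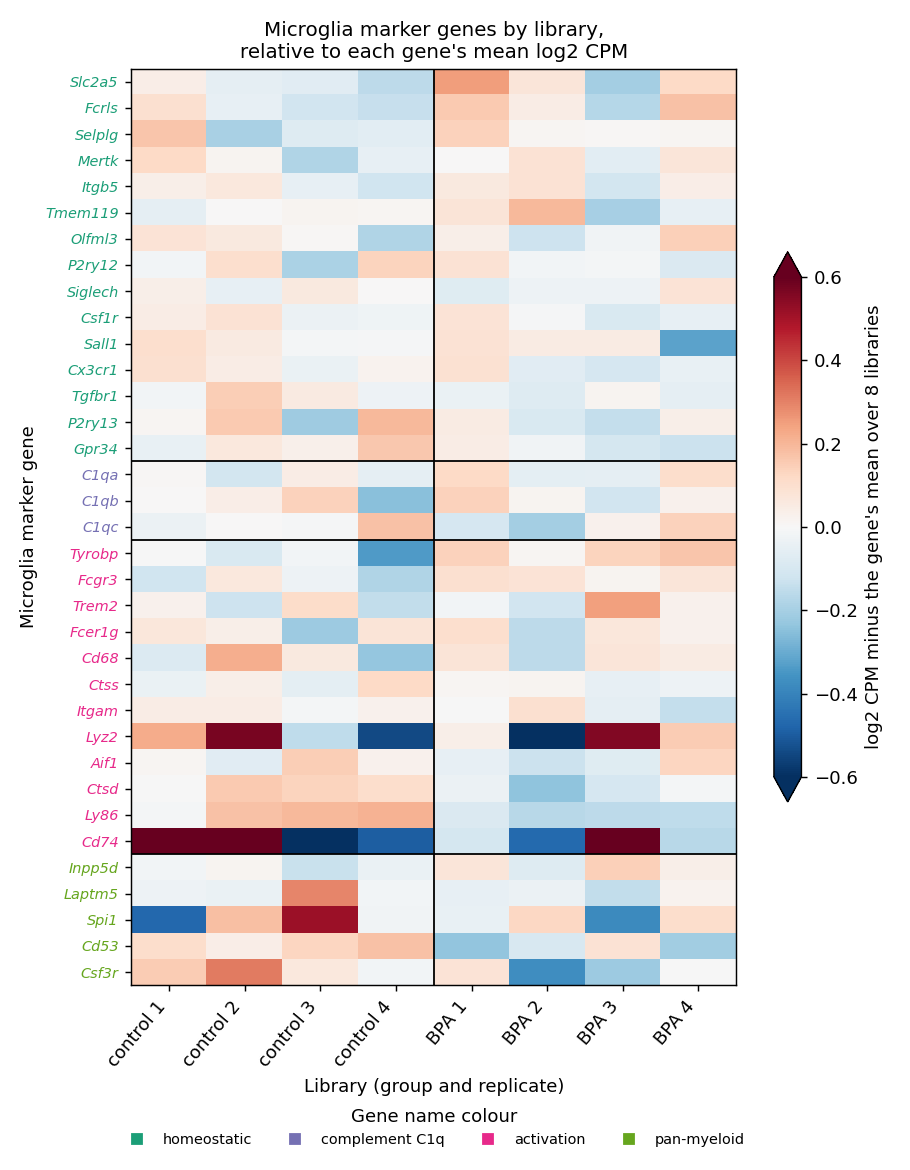
Level of each of the 35 members in each of the 8 libraries, as log2 CPM minus that gene's mean over the libraries, with rows grouped by role and columns by group; colours saturate at the ends of the scale. Most rows vary little between libraries, and Cd74 and Lyz2 vary most.

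Homeostatic genes did not pass the test in either direction: 7 of 15 were higher and 8 lower in BPA mice, 0 had an unadjusted p under 0.05, and the median log2 fold change was -0.016. That median was 0.016 without control replicate 2 and 0.0096 without BPA replicate 4. Their summed level was 353 ± 13.1 CPM in the control group and 349 ± 11.9 CPM in BPA mice (SD, n = 4). In the fit without the log2 library total as a covariate, the interval excluded changes of 1.25-fold for 14 of the 15. It did so for 10501 of all 15434 genes tested. The exception was the fructose transporter Slc2a5 (fold 1.09, 95% interval 0.913 to 1.30).

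Among the surveillance receptors, Cx3cr1, the receptor for the neuronal chemokine fractalkine, lies on chromosome 9 (119901616 to 120069879, build mm10). It stood at 43.8, 42.3, 39.9 and 41.7 CPM in the 4 control libraries and at 43.7, 39.1, 38.2 and 39.7 CPM in the 4 BPA libraries. The groups overlapped, and the fold was 0.958 (95% interval 0.885 to 1.04; edgeR adjusted p = 0.957). Its ligand Cx3cl1, named after its values were seen, was at 327 ± 20.6 CPM in unexposed mice and 334 ± 6.18 CPM in BPA mice (SD, n = 4). P2ry12, the receptor through which microglial processes move toward ADP, lies on chromosome 3 (59216272 to 59262871). P2ry12 was at 43.8, 47.5, 38.8 and 48.5 CPM in control mice and at 47.05, 43.8, 44.0 and 41.8 CPM in BPA mice. The BPA libraries lay within the control range, with a fold of 0.989 (0.893 to 1.09). Its neighbour P2ry13, a second ADP receptor, was at 8.76 ± 1.08 CPM in the control group and 8.28 ± 0.547 CPM in BPA mice. The orphan receptor Gpr34, a further member of this receptor family, was lower by a log2 fold change of -0.10 ± 0.065 (SE), which did not pass the test either.

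Csf1r, the receptor for the survival factors Csf1 and Il34, was at 46.2, 47.6, 43.8 and 44.1 CPM in unexposed mice and 47.5, 44.6, 42.1 and 43.3 CPM in BPA mice. The groups overlapped, with BPA replicates 3 and 4 below all controls, and the fold was 0.977 (0.905 to 1.05). Exons of Hmgxb3 overlap part of its exons on the opposite strand, and whether reads were counted by strand is not stated in the sources at hand. Csf1 was at 19.9 ± 3.09 CPM in control mice and 22.2 ± 0.988 CPM in BPA mice, and Il34, named after its values were seen, at 12.2 CPM in both. Tgfbr1, a receptor of transforming growth factor beta, had a log2 fold change of -0.080 ± 0.052 (SE). Sall1, a transcription factor that keeps microglial identity, was at 26.3, 25.4, 24.3 and 24.4 CPM in the control group and 26.0, 25.4, 25.4 and 19.7 CPM in BPA mice. BPA replicate 4 alone lay below the others, and the other 3 BPA libraries lay within the control range.

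Tmem119, a membrane protein much used to tell microglia from other macrophages, was at 8.62, 8.95, 9.04 and 9.03 CPM in unexposed mice and at 9.44, 10.2, 7.79 and 8.64 CPM in BPA mice. BPA libraries fell on both sides of the controls, and the fold was 1.01 (0.891 to 1.16). Selplg, the P-selectin ligand, which lies 18019 bases from Tmem119 on chromosome 5, was at 18.4 ± 1.98 CPM in control mice and 19.5 ± 0.879 CPM in BPA mice (SD, n = 4). The microglial lectin Siglech was the steadiest member, with a ratio of 1.12 between its highest and lowest library. The remaining homeostatic genes Fcrls, Itgb5, Olfml3 and Mertk had log2 fold changes from 0.011 for Olfml3 to 0.10 for Fcrls.

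The 3 chains of C1q are encoded side by side on chromosome 4, with 3616 bases between C1qb and C1qc and 2851 between C1qc and C1qa. C1qa was at 9.02, 8.34, 9.27 and 8.65 CPM in the control group and 9.75, 8.64, 8.67 and 9.68 CPM in BPA mice. C1qb was at 13.6, 14.0, 14.9 and 11.4 CPM in unexposed mice and 14.9, 13.7, 12.5 and 13.8 CPM in BPA mice. C1qc was at 12.1, 12.4, 12.4 and 14.0 CPM in control mice and 11.6, 10.8, 12.7 and 13.6 CPM in BPA mice. The groups overlapped for each chain, and the folds were 1.04 (0.932 to 1.16), 1.02 (0.897 to 1.16) and 0.956 (0.845 to 1.08) in that order. Per kilobase, C1qb made up 45.0% ± 3.30 of the 3 chains in controls and 45.5% ± 2.15 in BPA mice, C1qa 30.9% ± 1.14 and 31.8% ± 0.410, and C1qc 24.1% ± 2.60 and 22.7% ± 2.16 (SD, n = 4). The shares of the 2 groups overlapped for each chain and were not tested.

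Activation genes as a group showed no shared direction: 5 of 12 were higher and 7 lower in BPA mice, 2 had an unadjusted p under 0.05 (Ctsd and Ly86, both lower), and the median log2 fold change was -0.038. That median is 0.031 without control replicate 2 and 0.019 without BPA replicate 2. Their summed level was 259 to 282 CPM in the control group and 238 to 258.5 CPM in BPA mice, without overlap. A single gene, Ctsd, held 47.4% to 54.1% of that sum, and the other 11 summed to 128 ± 4.16 CPM in unexposed mice and 126 ± 1.73 CPM in BPA mice (SD, n = 4), with overlap. Of the 15434 genes tested, groups did not overlap for 431 (2.79%), 211 with BPA above (1.37%) and 220 with BPA below (1.43%). Among the 35 members they did not overlap for 3, Ly86 and Ctsd with BPA below and Tyrobp with BPA above.

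Tyrobp, the adaptor that passes on signals from Trem2 and other receptors, lies on chromosome 7 (30413760 to 30417585). It was at 4.57, 4.29, 4.52 and 3.62 CPM in control mice and at 5.03, 4.61, 5.02 and 5.14 CPM in BPA mice. Each BPA library lay above each control library, the closest being BPA replicate 2 and control replicate 1. The fold was 1.16 (0.999 to 1.35), with an unadjusted p of 0.0515 and an adjusted p of 0.955 (edgeR). With the depth covariate, the log2 library total, the log2 fold change of Tyrobp went from 0.21 to 0.13 (unadjusted p = 0.428). Trem2 itself, the lipid-sensing receptor of this pair, was at 4.08, 3.68, 4.33 and 3.62 CPM in the control group and 3.96, 3.70, 4.75 and 4.08 CPM in BPA mice. Its groups overlapped, with a fold of 1.05 (0.887 to 1.24). Fcer1g and Fcgr3 encode a second adaptor and an immunoglobulin receptor that signals through it. Fcgr3 was at 8.80 ± 0.659 CPM in unexposed mice and 9.63 ± 0.238 CPM in BPA mice, and Fcer1g at 6.30 ± 0.588 and 6.37 ± 0.496 CPM (SD, n = 4).

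**Figure D3:**
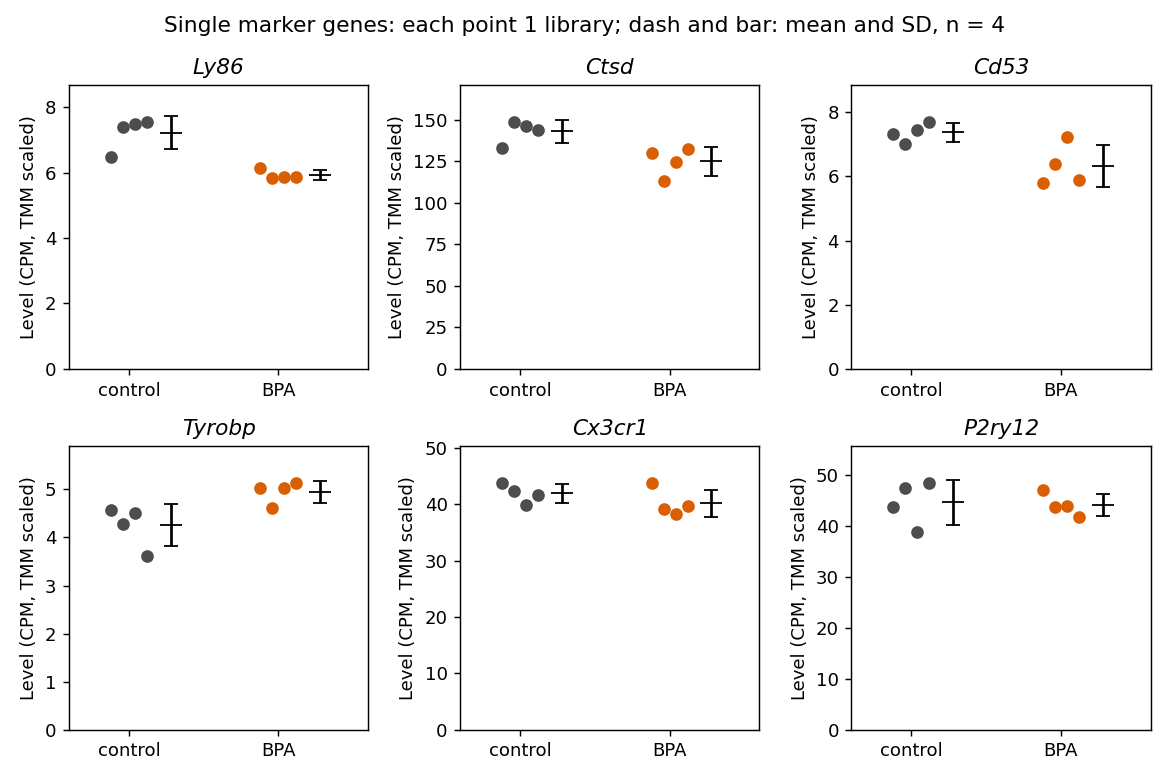
Level in CPM of single members in the 4 control and 4 BPA libraries, each point 1 library, with the mean and SD of each group. Tyrobp lies higher and Ly86 and Ctsd lower in every BPA library than in every control library, and none of them passed the adjusted threshold of 0.05.

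Ly86, also called MD-1, is the secreted partner of the Toll-like receptor relative RP105 and lies on chromosome 13 (37345208 to 37419036). It was at 6.47, 7.38, 7.49 and 7.55 CPM in control mice and at 6.15, 5.82, 5.85 and 5.88 CPM in BPA mice. All BPA libraries lay below all control libraries, and the lowest control, replicate 1, was the nearest to them. The fold was 0.822 (0.729 to 0.927), with an unadjusted p of 0.00390 and an adjusted p of 0.955 (edgeR). Ctsd, the aspartic protease cathepsin D of the lysosome, lies on chromosome 7 (142375911 to 142388038). Ctsd was at 133, 149, 146 and 144 CPM in the control group and at 130.03, 113, 125 and 132 CPM in BPA mice. The groups did not overlap, though BPA replicate 4 and control replicate 1 lay close together. The fold was 0.874 (0.804 to 0.951), with an unadjusted p of 0.00441 and an adjusted p of 0.955 (edgeR). Depth moves with the groups here: with the log2 library total as a covariate, the log2 fold change of Ly86 went from -0.28 to -0.16 (unadjusted p = 0.227) and that of Ctsd from -0.19 to -0.075 (unadjusted p = 0.371). With all libraries thinned to the smallest, the values were -0.28 for Ly86 and -0.19 for Ctsd.

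For the other lysosomal members the groups overlapped. Ctss, a cysteine protease of antigen-presenting cells, was at 59.9, 63.2, 59.2 and 67.0 CPM in unexposed mice and 62.1, 62.3, 59.5 and 60.3 CPM in BPA mice, with a fold of 0.981 (0.913 to 1.05). Cd68, a lysosomal glycoprotein used to stain phagocytic microglia, was at 5.46 ± 0.724 CPM in control mice and 5.51 ± 0.417 CPM in BPA mice (SD, n = 4). Aif1, which encodes the staining marker IBA1, was at 4.14 ± 0.259 and 3.97 ± 0.316 CPM, and Itgam, the integrin CD11b, at 21.6 ± 0.403 and 20.9 ± 1.44 CPM. For Aif1 the 95% interval of the fold was 0.826 to 1.12, and for Itgam 0.887 to 1.05.

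Of the 5 genes shared by myeloid cells, 1 was higher and 4 lower in BPA mice, with a median log2 fold change of -0.12. Their summed level was 41.3 to 47.6 CPM in controls and 39.5 to 41.1 CPM in BPA mice, without overlap but with the nearest libraries close together. Cd53, a tetraspanin of leukocytes on chromosome 3 (106759921 to 106790149), was at 7.34, 7.01, 7.46 and 7.70 CPM in the control group and 5.79, 6.38, 7.24 and 5.90 CPM in BPA mice. BPA replicate 3 lay within the control range and the other 3 BPA libraries below it. The fold was 0.859 (0.752 to 0.981), with an unadjusted p of 0.0281 and an adjusted p of 0.955 (edgeR), and the log2 fold change was -0.22, or -0.17 with the depth covariate (unadjusted p = 0.267). Csf3r was at 2.74, 3.06, 2.58 and 2.44 CPM in unexposed mice and 2.62, 1.90, 2.12 and 2.47 CPM in BPA mice, which overlapped. The lysosomal membrane protein Laptm5 was at 25.3 ± 2.97 CPM in control mice and 23.5 ± 1.14 CPM in BPA mice, and the phosphatase Inpp5d at 6.39 ± 0.279 and 6.79 ± 0.429 CPM (SD, n = 4). Spi1, the gene of PU.1, was at 0.865, 1.36, 1.71 and 1.18 CPM in the control group and 1.16, 1.31, 0.922 and 1.29 CPM in BPA mice, with a fold of 0.923 (0.671 to 1.27).

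Homeostatic and activation genes were set against each other within each library, as the difference between their mean log2 CPM. That difference was 1.23, 1.06, 1.35 and 1.34 in controls and 1.30, 1.42, 1.02 and 1.24 in BPA mice. The means were 1.25 ± 0.14 and 1.25 ± 0.17 (SD, n = 4), and the groups overlapped over nearly their whole range. The lowest values were those of control replicate 2 and BPA replicate 3, which carried the highest Lyz2 and Cd74. Without these 2 genes, a choice made after their values were seen, the difference was 0.76 ± 0.060 in controls and 0.77 ± 0.075 in BPA mice. The spread within each group was then less than in the full lists, and the group means remained close.

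**Figure D4:**
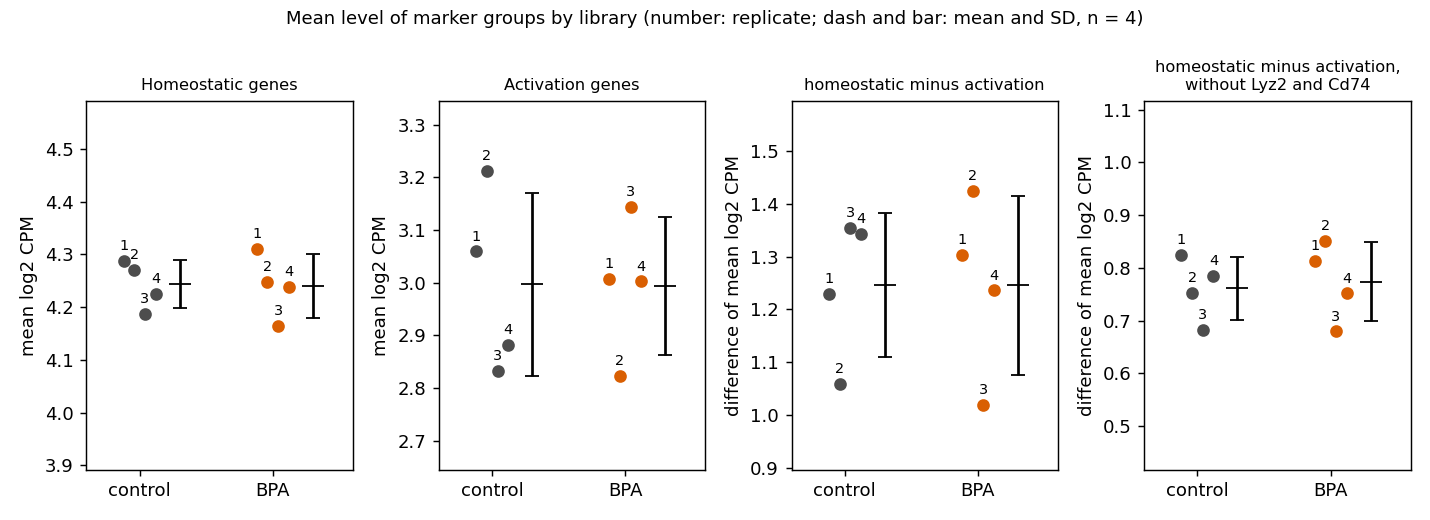
Mean log2 CPM of the 15 homeostatic genes and of the 12 activation genes in each of the 8 libraries, and the difference between both with and without Lyz2 and Cd74; points are libraries with their replicate number, the dash and bar the mean and SD. Control and BPA libraries overlap in each panel, with mean differences of 1.25 in each group for the full lists.

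Lyz2, the lysozyme of phagocytes, and Cd74, the invariant chain of major histocompatibility class II, varied most between mice. Cd74 stood at 1.16, 2.26, 0.129 and 0.495 CPM in unexposed mice and at 0.648, 0.504, 1.64 and 0.622 CPM in BPA mice, from 4 to 85 reads. Lyz2 was at 3.43, 4.37, 2.65 and 2.02 CPM in control mice and at 3.02, 1.64, 4.33 and 3.27 CPM in BPA mice. Their within-group SDs on the log2 scale were 1.23 and 0.527, where the median over the members was 0.115 and over all genes 0.108. Control replicates 1 and 2 and BPA replicate 3 had the highest levels of both genes. The log2 fold change of Cd74 was -0.32 ± 0.58 (SE) over all mice, 0.42 without control replicate 2 and -0.84 without BPA replicate 3. That of Lyz2 was -0.050 ± 0.27 over all mice, 0.15 without control replicate 2 and -0.27 without BPA replicate 3. With both libraries left out, Cd74 was at -0.12 and Lyz2 at -0.076, so the direction of either gene hung on single mice. Lyz1, a close copy of Lyz2, could share its reads.

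Markers of cells at the borders of the brain moved with these 2 genes across libraries. The 10 border macrophage genes, among them the mannose receptor Mrc1, summed to 18.3, 16.1, 11.6 and 11.1 CPM in the control group and 13.3, 11.2, 20.9 and 13.2 CPM in BPA mice. The 9 genes of meningeal fibroblasts summed to 168, 231, 108 and 100.5 CPM in unexposed mice and 109.5, 111, 241 and 114 CPM in BPA mice. For both lists the same 3 libraries were highest. The 12 choroid plexus genes summed to 3138 CPM in control replicate 2 and 839 CPM in BPA replicate 3, and to between 169 and 364 CPM in the other 6 libraries. All 12 were lower in BPA mice with control replicate 2 included, and none passed the test. The controls other than replicate 2 summed to 213 to 310 CPM, and BPA mice to 169 to 839 CPM. The part of these genes in the levels of Lyz2 and Cd74 was not tested.

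**Figure D5:**
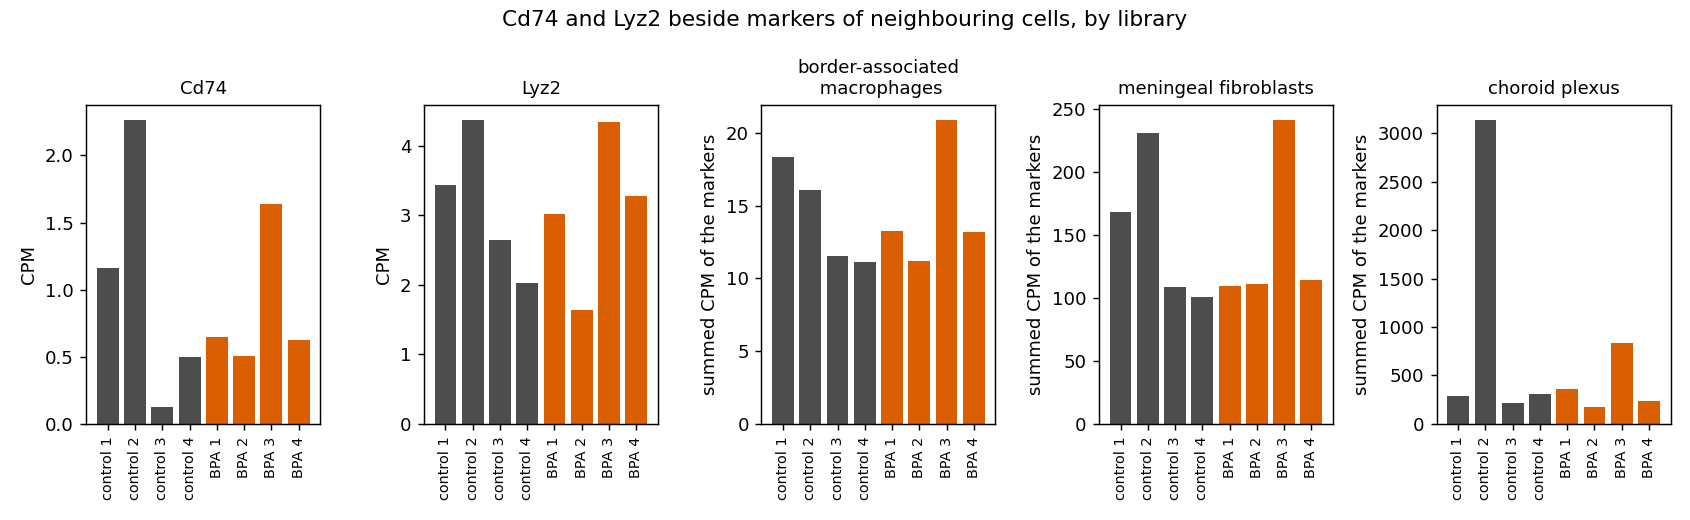
Levels in CPM of Cd74 and Lyz2 in the 8 libraries (1 bar each) beside the summed CPM of border macrophage, meningeal fibroblast and choroid plexus markers. Control replicate 2 and BPA replicate 3 stand high in each, and control replicate 1 joins them for all but the choroid plexus markers.

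Further genes of microglial pathways were taken from lists outside the 35 members, and none of them passed the test (edgeR adjusted p of at least 0.955). Of the 20 genes raised in disease-associated microglia, 17 were tested, 10 were higher and 7 lower in BPA mice, and the median log2 fold change was 0.025. Apoe, a lipid carrier that astrocytes also make in quantity, was at 1055 ± 8.72 CPM in control mice and 1137 ± 38.8 CPM in BPA mice (SD, n = 4). It lay higher in each BPA library (1091 to 1177 CPM) than in each control library (1043 to 1063 CPM), with a log2 fold change of 0.11 ± 0.038 (SE) and an unadjusted edgeR p of 0.0146. Over all genes tested, 1.37% lay higher in each BPA library, and 2.22% were higher at an unadjusted p under 0.05. The tetraspanin Cd9 was lower by -0.19 ± 0.096 on the same scale and overlaps a transcript on the other strand. Of 20 inflammatory mediators, 12 were tested, with 6 higher and 6 lower and a median of -0.0019. The cytokine Il18 was at 7.61 ± 0.413 CPM in the control group and 8.33 ± 0.492 CPM in BPA mice, and the prostaglandin synthase Ptgs2 at 35.8 ± 3.32 and 32.8 ± 3.22 CPM. Il1b, Tnf, Il6 and Ccl2 had too few reads to test, and no statement on them can be made at this depth.

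Of 20 ligands and partners of microglial receptors, 19 were tested, with 9 higher, 10 lower and a median log2 fold change of -0.0045. Cd200, a neuronal ligand that restrains microglia, and Csf1 had the smallest p of that list, at -0.080 ± 0.044 and 0.15 ± 0.091 (log2 fold change ± SE). Among 14 complement genes tested, 6 were higher and 8 lower, and 2 had an unadjusted p under 0.05 (4.52% of all genes tested). Both, the regulator Cd46 and the anaphylatoxin receptor C5ar1, were expressed at low levels and lay lower in each BPA library, as did 1.43% of all genes tested. Cd46 was at 1.24 ± 0.151 CPM in unexposed mice and 0.820 ± 0.120 CPM in BPA mice, and other genes overlap it on the opposite strand. C5ar1, at 11 to 23 reads per library, was at 0.492 ± 0.096 CPM in control mice and 0.296 ± 0.061 CPM in BPA mice (SD, n = 4).

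Of 10 transcription factors of microglia, 3 were higher and 7 lower, with a median log2 fold change of -0.085. Cebpa, a myeloid factor that other brain cells also express, was at 4.25, 3.54, 4.71 and 4.34 CPM in the control group and 5.48, 5.23, 4.98 and 4.75 CPM in BPA mice, with no overlap and an unadjusted edgeR p of 0.0198. Among the 10 factors, groups did not overlap for 1 with BPA above and 1 with BPA below. Over all genes tested, groups did not overlap for 2.79%, and 4.52% had an unadjusted p under 0.05. An antisense transcript overlaps Cebpa. Irf8, named after its values were seen because its groups did not overlap, was at 2.60 ± 0.163 CPM in control mice and 2.19 ± 0.230 CPM in BPA mice (SD, n = 4). Of 25 other microglia genes tested, 8 were higher and 17 lower, with a median of -0.057 and none at an unadjusted p under 0.05. Hpgds, a prostaglandin D synthase, was at 8.00 ± 0.285 CPM in control mice and 7.24 ± 0.217 CPM in BPA mice. Its groups did not overlap, with BPA below, as for 1.43% of all genes tested. The nucleic acid sensor Tlr7 had a log2 fold change of -0.18 ± 0.099 (SE).

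Markers of the other cell types of the tissue were read in the same way. Astrocyte genes had a median log2 fold change of 0.034 over 8 genes, oligodendrocyte genes -0.026 over 8, neuronal genes -0.036 over 10 and endothelial and pericyte genes 0.0051 over 11. The pericyte gene Rgs5 was lower in each BPA library, as were 1.43% of all genes tested. Its level was 146 ± 5.66 CPM in the control group and 129 ± 8.32 CPM in BPA mice (SD, n = 4). The oligodendrocyte gene Ermn had a log2 fold change of -0.13 ± 0.047 (SE). All 7 ependymal genes tested were lower with control replicate 2 included, Foxj1 by -0.42 ± 0.18. The ependymal list summed to 36.5 CPM in control replicate 2 and 18.2 to 21.9 CPM in the other controls. In BPA mice it summed to 14.8 to 25.1 CPM. No marker of these cell types passed the test, and their part in the levels of the microglial members was not tested.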

How the data were processed

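RNA-seq counts of mouse hippocampus were read for 4 control and 4 BPA libraries. The authors deposited raw counts per gene symbol, whole numbers that are not normalized, on the refGene annotation per the file headers. The submitters' processing notes name Trimmomatic 0.32, STAR 2.3.0e, featureCounts 1.5.0, DESeq2 and mm10. Libraries were polyadenylated and stranded, per the labels' protocols. Whether counting used strand is not given in the sources at hand.

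Genes were filtered with filterByExpr and tested in edgeR 4.0.16, run in R 4.3.3, by its two-sided quasi-likelihood test with 1 group term and TMM scaling, over 15434 genes, with Benjamini-Hochberg adjustment at 0.05. Alternatives used DESeq2 1.42.0, limma 3.58.1, other scalings and filters, a depth covariate, thinning and left-out libraries. Scores are mean log2 CPM with a prior count of 2. Scripts were tested on simulated data. The biological coefficient of variation was 8.20%, which sets the precision. All 12 replicate pairs differed by more than sampling noise, with chi-square values of 9.69 to 23.5 per degree of freedom. Exonic lengths, positions and overlaps came from GENCODE M21 (GRCm38), and promoters from RefSeq. The members and lists were chosen with earlier results of these data known. All members are named, and from each other list the 2 genes of smallest p; exceptions are marked, and some results are not reported here.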

Additional observations from a re-analysis of the deposited data

Results flagged for a closer look

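In groups of 4, a library was picked out where its gap to the nearest other library exceeded Dixon's 95% critical share of the group's range. Of 108 groups looked at 13 met this, 8 of them among the 70 groups of single members, and chance alone gives about 1 in 20. High libraries were BPA replicate 1 for Selplg (20.8 CPM, gap 0.951 of the range) and for Ly86 within the BPA group (6.15 CPM, 0.838), control replicate 3 for Laptm5 (29.8 CPM, 0.941) and BPA replicate 3 for Cd74 (1.64 CPM, 0.872). Low libraries were BPA replicate 2 for Cd68 (4.89 CPM, 0.860), control replicate 1 for Ly86 (6.47 CPM, 0.846), control replicate 3 for Fcer1g (5.42 CPM, 0.844) and BPA replicate 4 for Sall1 (19.7 CPM, 0.898).

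Among sums, control replicate 3 stood high for the 5 genes shared by myeloid cells (47.6 CPM, 0.921), control replicate 2 for choroid plexus genes (3138 CPM, 0.967), BPA replicate 1 for ependymal genes (25.1 CPM, 0.866) and BPA replicate 3 for meningeal genes (241 CPM, 0.965). BPA replicate 2 was the deepest BPA library (54.01 M reads, 0.919).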

How the results depend on the processing

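No member was called under any of 18 other settings. Of 629 member values, 44 changed sign, 11 of them with the log2 library total as covariate. In every setting 17 members kept their sign. DESeq2 called 7 genes, 0 of them members, where edgeR called 0 (698 at an unadjusted p under 0.05, and 627 in DESeq2). Members at an unadjusted p under 0.05 were 3, 0 with the log2 library total as covariate, and 2 to 5 when 1 library was left out, with 5 without control replicate 1. Ly86 and Ctsd stayed under that p in 17 of 18 settings and Cd53 in 12, and Tyrobp, above it with all libraries, fell under it in 3. The covariate moved C1qc, Itgam, Itgb5, Ctsd, Ly86 and Mertk by more than 1 SD. The median log2 fold change of the members ran from -0.042 to 0.016, positive without control replicate 2. The homeostatic median ran from -0.052 to 0.016, the activation median from -0.053 to 0.031, and the balance difference from -0.063 to 0.075.

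Deviations from the group means correlated at -0.12, -0.37, -0.30 and 0.070 between same-numbered libraries. Differently numbered pairs averaged 0.061, so no pairing by replicate number was seen. These correlations cannot show whether mice were paired by litter or handling. A replicate block gave 0 genes called and 3 members at an unadjusted p under 0.05. Cd74 was imprecise, at 4 to 85 reads and a within-group SD of 1.23 on the log2 scale. Spi1, at 31 to 70 reads, had an SD of 0.32. The untested inflammatory genes had too few reads to enter the test.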

Other observations

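Control replicates 2 and 4 were the highest library for 7 members each (20.0%) and BPA replicate 3 for 2 (5.71%). The lowest library was control replicate 3, control replicate 4 or BPA replicate 2 for 7 members each (20.0%), and control replicate 1 for 1 (2.86%). Over all genes tested, control replicates 2 and 4 were highest for 15.2% and 17.6% and BPA replicate 3 for 12.5%. Control replicates 3 and 4 and BPA replicate 2 were lowest for 12.9%, 16.7% and 10.7%, and control replicate 1 for 12.6%. Of the 15 homeostatic genes, 5 (33.3%) were lowest in BPA replicate 3, against 13.4% of all genes tested. Of the 12 activation genes, 4 (33.3%) were highest in control replicate 2, against 15.2% of all genes tested. These counts are small and were not tested, and nothing particular to microglia is read from them.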
